A study of Danio rerio with 10 samples.

Results

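The transcriptome of zebrafish testis tissue kept in culture with androgen alone was described from the 5 libraries titled 11KT, of the 10 libraries in the series. The members were chosen by that title. Each library was made from testis of adult wild-type Danio rerio after 3 days of incubation with 11KT, 11-ketotestosterone, the main androgen of male fish. The labels list these libraries under the treatment control, and the tissue of the other 5 libraries also received Amh and was not analysed here. The series calls the 5 libraries biological replicates without saying whether each holds the tissue of 1 animal or of several, so the spread between them may be partly technical. No uncultured testis and no culture without 11KT was analysed here, and what culture or androgen adds to any level was not tested.

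In the fish testis, Sertoli cells wrap clones of germ cells into cysts, in which spermatogonia divide by mitosis, enter meiosis together and, as spermatids, build a flagellum. Leydig cells lie outside the cysts and turn cholesterol into androgens, which in fish end in 11KT. Germ cells carry granules rich in Piwi proteins and their small RNAs, which keep transposons silent, and few other cells of the body make these proteins.

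The values are counts of reads per gene, 8455226 to 11934679 in all per library, scaled here to CPM, counts divided by the total of the library and given per 1000000. A count of 0 allows up to 0.251 to 0.355 CPM by library (3 counts, counting error only). Gene lengths were not used, so a CPM is a share of reads, and a long gene collects more of it than a short gene with the same number of transcripts. Of 33737 genes, 28215 had a count, 19188 averaged at least 1 CPM and 16672 reached 1 CPM in all 5 libraries. Every pair of libraries correlated at 0.940 to 0.969 across genes (Pearson's r of log2(CPM + 1); genes are not independent replicates), lowest between libraries 2 and 3 and highest between libraries 1 and 5. In bulk tissue, fewer cells of a type and less RNA per cell cannot be told apart.

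The genes with the most reads were those of mitochondria, ribosomes, chaperones and the sperm tail. MT-CO1, the mitochondrially encoded subunit of cytochrome c oxidase, led with 19823, 24239, 16615, 32939 and 18052 CPM in libraries 1 to 5. Its highest value, in library 4, was 1.98 times its lowest, in library 3. The 13 mitochondrially encoded genes together took 4.67, 6.88, 4.41, 8.90 and 4.72% of the counts, a mean of 5.92% ± 1.94 (SD, n = 5). The 10 highest genes held 6.83% of all counts, the 100 highest 18.6% and the 1000 highest 50.2%. By library, 812 (library 4) to 1087 (library 5) genes held 50% of the counts, and 53 genes were among the 100 highest of all 5 libraries.

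Among nuclear genes, HSP90AB1, a cytosolic chaperone, had 5131, 4682, 4533, 4308 and 5195 CPM, and its libraries differed little. The elongation factor eef1a1l1 followed with 3449, 4066, 2477, 4599.8 and 4468 CPM, lowest in library 3. CKB, brain-type creatine kinase, had 3703, 3619, 5037, 2744 and 3557 CPM and was highest in library 3. The fourth nuclear gene was dnah5l, a heavy chain of the dynein that drives the beat of flagella, with 3869.7, 2306, 5557, 3077 and 3681 CPM. Library 3 was its highest and library 2 its lowest. The chaperone HSPA8 (ENSDARG00000068992) had 2784, 3364, 2263, 2879 and 3436 CPM. The meiotic gene SYCP1, which encodes a protein of the synaptonemal complex, was the 17th nuclear gene with 2116, 1531, 2428, 1334 and 1748 CPM. Of the 20 highest nuclear genes, 6 have the symbol of a cytosolic ribosomal protein (RPSA2, RPLP0, RPS2, RPL3, rps20 and rpl7a), and all 6 were highest in library 4. Genes among the 20 with a clone name, such as si:dkey-151g10.6, or with no symbol could not be classed this way. The 73 cytosolic ribosomal protein genes took 5.90, 8.03, 5.17, 9.59 and 6.80% of the counts, a mean of 7.10% ± 1.75 (SD, n = 5).

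**Figure D1:**
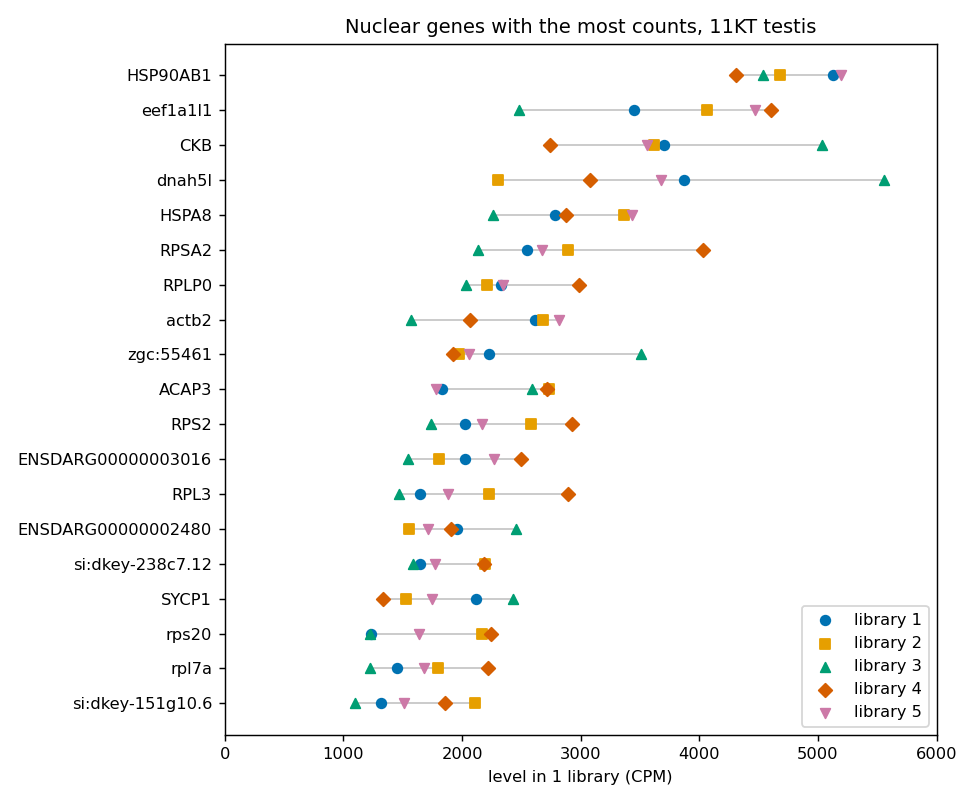
CPM (horizontal axis, linear) of 19 of the 20 nuclear genes with the highest mean CPM, 1 row a gene and 1 symbol a library, with a grey line over the range of the 5 libraries. HSP90AB1 spans 4308 to 5195 CPM, while dnah5l spans 2306 to 5557 CPM with library 3 at the high end.

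Germ cell genes were abundant, and the summed share of the germ granule genes was nearly equal in all libraries, though members such as PIWIL1 differed more. PIWIL1, a Piwi protein that binds small RNAs in germ cells, had 879.6, 1229, 932, 1069 and 1100.4 CPM, a mean of 1042 ± 139 (SD, n = 5). DDX4, the RNA helicase vasa, had 909, 873, 828, 1026 and 971 CPM. The translation regulator DAZL had 169.7, 207, 145, 179 and 179 CPM, lowest in library 3 and highest in library 2. All 19 germ granule genes measured reached 1 CPM in every library, and their sum was 0.520, 0.549, 0.524, 0.533 and 0.538% of the counts. The coefficient of variation of that sum was 2.19%, below that of every other marker list (3.89% for hormone receptors is the next). With TMM factors, which scale libraries by their genes of middle rank, these were 5.01% and 5.14%. Within the list, Tudor domain proteins, the scaffolds of the granule, ran from tdrd7a at 457 ± 41.9 CPM (SD, n = 5) to a TDRD7 copy (ENSDARG00000077523) at 41.2 ± 16.2 CPM. That copy was the least even member, with 30.2, 45.2, 21.2, 46.1 and 63.3 CPM, lowest in library 3 and highest in library 5. DND1, which guards germ cell messenger RNAs, stood at 69.1 CPM in library 2 against 39.1 to 41.1 CPM in the other 4.

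Spermatogonial markers were low beside them in share of counts. The 13 genes of the undifferentiated spermatogonia list summed to 0.0104, 0.0130, 0.0110, 0.00923 and 0.0134% of the counts, and 8 of the 13 averaged at least 1 CPM. SALL4, a transcription factor of stem and progenitor cells, had 27.0, 34.1, 32.7, 35.5 and 31.3 CPM. The transcription factor etv5b had 20.003, 18.7, 14.7, 12.7 and 23.9 CPM, lowest in library 4 and highest in library 5. RET, the receptor that takes up the GDNF signal in mammalian spermatogonial stem cells, was uneven, with 2.84, 12.9, 4.005, 10.8 and 3.44 CPM. Pou5f3, a pluripotency factor, averaged 1.22 ± 0.658 CPM and NANOS3 0.945 ± 0.347 CPM (SD, n = 5 each). The differentiating spermatogonia list was carried by DMRT1, a transcription factor of the male gonad that Sertoli cells also express. DMRT1 had 325, 377, 263, 341 and 296 CPM, while the receptor KIT had 7.52, 12.1, 7.01, 7.21 and 7.79 CPM. The list of 8 genes summed to 0.0380, 0.0433, 0.0323, 0.0397 and 0.0354% of the counts.

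Meiotic prophase genes took 0.459, 0.410, 0.478, 0.402 and 0.429% of the counts, and all 23 genes reached 1 CPM in every library. SYCP1 alone made up a large part of that sum. The telomere attachment factor terb1 had 562, 458, 633, 478 and 514 CPM, and HORMAD1, which marks chromosome axes before synapsis, had 419, 469, 443, 401 and 464 CPM. The genes of this list did not share 1 order of libraries. SYCP3, a protein of the lateral elements, had 142, 233, 98.2, 218 and 166 CPM, so library 3 was its lowest although it was the highest for SYCP1. Library 3 was also the lowest for sycp2, smc1b and rec8b. The lateral element gene sycp2 had 241, 305, 179, 353 and 262 CPM. The cohesin subunits smc1b and rec8b, which hold sister chromatids together in meiosis, had 244, 271, 202, 325 and 251 CPM and 44.8, 52.5, 23.4, 65.2 and 52.2 CPM. In sycp2, smc1b and rec8b the order was library 4, then 2, 5, 1 and 3, the order of the summed ribosomal protein genes too. The recombinase DMC1, which finds the homologous chromosome, had 86.3, 81.8, 52.5, 80.7 and 107 CPM, also lowest in library 3. Genes of crossover formation differed more, with 46.2, 34.2, 70.08, 27.5 and 32.6 CPM for mlh3 and 13.9, 30.8, 15.3, 44.4 and 37.2 CPM for MSH5. The nuclease gene spo11, which makes the breaks that start recombination, had 23.9, 53.0, 28.5, 26.8 and 29.8 CPM, highest in library 2. Of the 23 genes, 7 were highest and 10 lowest in library 3, where 18.6% and 30.7% of all 19188 genes with a mean of at least 1 CPM were highest and lowest.

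Genes of spermatid differentiation and the flagellum held more reads than any other marker list, 1.42, 1.14, 1.78, 1.13 and 1.22% of the counts, a mean of 1.34% ± 0.274 (SD, n = 5). RSPH4A, a protein of the radial spoke heads that govern flagellar beating, had 1189, 768, 1521, 1077 and 998 CPM. The very long central pair gene hydin had 926, 426, 1340.3, 632 and 789 CPM. In both genes library 3 stood highest and library 2 lowest. Of the 38 genes of the list with a mean of at least 1 CPM, 28 were highest in library 3, against a background of 18.6% of all genes. With TMM factors the count was 29 of 38, against a background of 24.1%. A few members went another way, such as the dynein intermediate chain DNAI1 with 338, 196, 123, 202 and 275 CPM, lowest in library 3. ROPN1L, a fibrous sheath protein, had 566, 495, 447, 458 and 479 CPM and was highest in library 1.

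**Figure D2:**
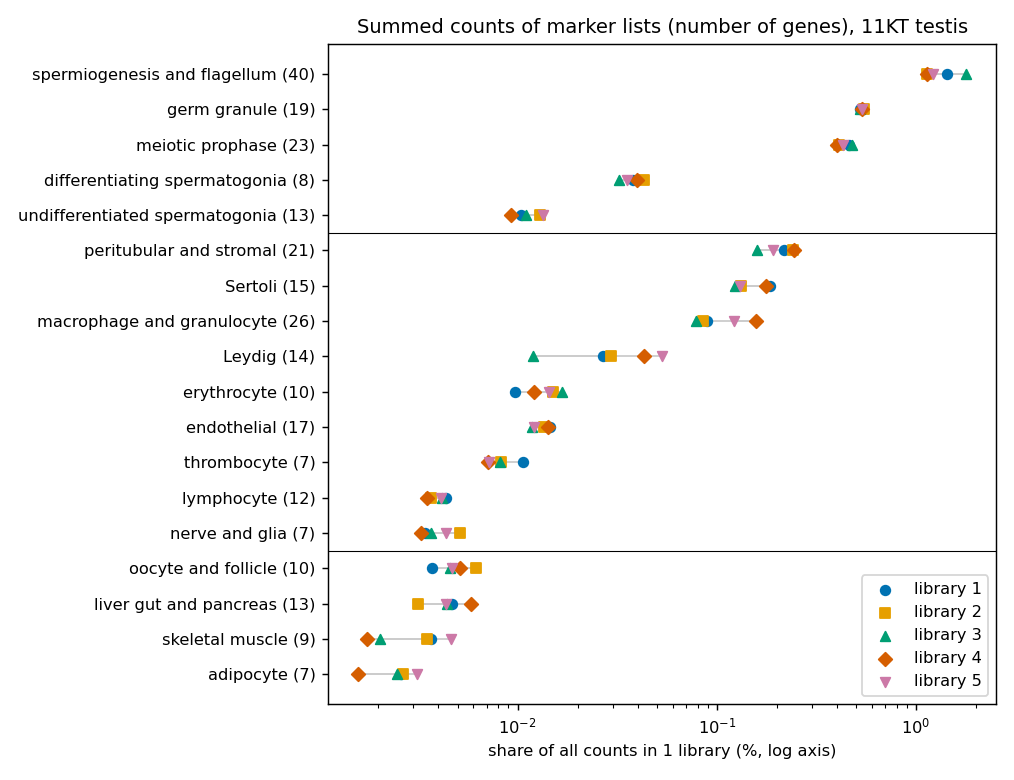
Summed counts of 18 marker lists as a percent of all counts (horizontal axis, logarithmic), 1 row a list with its number of genes and 1 symbol a library; lines part the germ cell lists (top), the somatic cell lists (middle) and lists of other tissues (bottom). The germ granule symbols lie on top of each other at 0.520 to 0.549%, and the Leydig list has the widest spread, 0.0119 to 0.0530%.

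Proliferation genes were well covered. The 19 genes of the S phase and mitosis list summed to 0.334, 0.319, 0.402, 0.330 and 0.302% of the counts, highest in library 3. Of the 19 genes, 6 were highest in library 3 and 8 lowest there, against backgrounds of 18.6% and 30.7%. The 3 genes with the most reads were highest in library 3, with 629, 509, 852, 511 and 462 CPM for the mitotic kinase plk1, 462, 348, 688, 414 and 349.8 CPM for the proliferation marker mki67 and 371, 463, 672, 412 and 322 CPM for cyclin CCNB1. Other genes of division had another order, such as the kinase AURKB with 194, 162, 152, 167 and 190.2 CPM, lowest in library 3. Among replication genes, PCNA, the sliding clamp, had 127, 149.6, 117, 172 and 151 CPM and MCM4, of the replicative helicase, had 95.8, 129, 99.6, 141 and 123 CPM, both highest in library 4. Meiotic divisions use several of these genes too, so the list does not separate mitotic from meiotic cells.

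Sertoli cell genes were led by gsdf, a TGF-beta family factor of the fish gonad, with 1259, 783, 875, 1290.0 and 770.2 CPM. Libraries 1 and 4 were above the other 3, which had 770.2 to 875 CPM. The hormone gene amh, which encodes anti-Müllerian hormone, had 87.5, 148, 72.3, 67.6 and 74.5 CPM. Library 2 stood alone at 148 CPM, against 67.6 to 87.5 CPM in the other 4. The growth factor igf3, which fish Sertoli cells make to drive spermatogonia, had 7.43, 9.58, 4.51, 4.71 and 10.6 CPM. Clusterin (CLU) had 181, 134, 78.1, 129.9 and 135 CPM and the junction protein TJP1 144, 89.4, 78.3, 93.9 and 131 CPM, both lowest in library 3. SOX9, a transcription factor of Sertoli cells, was low in both its copies, at 4.27 ± 2.03 CPM (ENSDARG00000043923) and 1.74 ± 0.9903 CPM (ENSDARG00000003293; SD, n = 5 each). The 15 genes summed to 0.186, 0.132, 0.123, 0.177 and 0.131% of the counts, most of it gsdf. Of the 15, 10 were lowest in library 3, against a background of 30.7%, and 8 with TMM factors, against 24%.

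Leydig cell genes showed the widest spread of the marker lists, with a coefficient of variation of 48.1% for their sum, 0.0269, 0.0293, 0.0119, 0.0429 and 0.0530% of the counts. The peptide hormone gene insl3 had 90.2, 87.3, 10.9, 105 and 215 CPM. Library 5 was its highest, library 3 its lowest by far, and the ratio of these was 19.7. STAR, which brings cholesterol into mitochondria for steroid synthesis, had 24.8, 29.9, 6.41, 73.1 and 57.1 CPM. CYP17A1, the enzyme that opens the way to androgens, had 12.02, 12.8, 7.11, 16.3 and 19.5 CPM. The pair of enzymes that complete 11KT followed the same pattern, with 13.5, 10.4, 4.51, 31.0 and 27.8 CPM for cyp11c1 and 29.9, 53.9, 16.9, 72.3 and 65.4 CPM for HSD11B2. The steroid dehydrogenase gene hsd3b1 had 15.5, 8.28, 3.504, 23.7 and 35.3 CPM, and fdx1b, the ferredoxin that hands electrons to the mitochondrial steroid enzymes, had 7.71, 4.73, 3.10, 11.2 and 14.8 CPM. In all of these genes library 3 was the lowest, and libraries 4 and 5 took the first places. FDXR, a reductase that other tissues use as well, differed less, with 49.0, 59.5, 51.1, 65.1 and 56.0 CPM. HSD17B3 had 1.38, 4.49, 2.30, 3.14 and 3.35 CPM, lowest in library 1 and highest in library 2. NR5A1 had 4.22, 2.13, 2.40, 4.53 and 4.02 CPM, lowest in library 2. Of the 12 genes with a mean of at least 1 CPM, 9 were lowest in library 3, against a background of 30.7%, and 9 were lowest there with TMM factors too, against 24%.

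**Figure D3:**
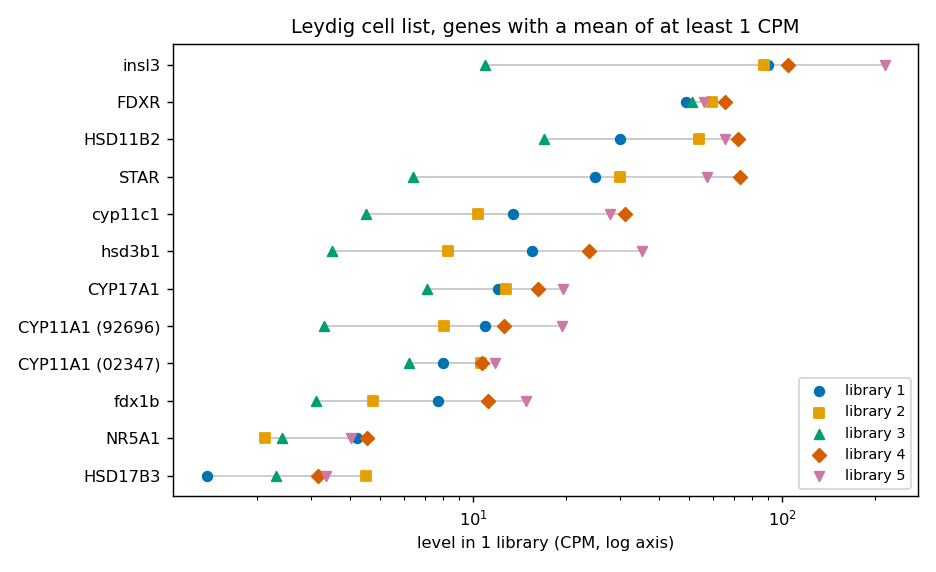
CPM (horizontal axis, logarithmic) of the 12 Leydig list genes with a mean of at least 1 CPM, 1 row a gene and 1 symbol a library; digits after CYP11A1 are the last of the gene ID. Library 3 lies at the left end in 9 rows, most widely apart for insl3 at 10.9 CPM, and libraries 4 and 5 lie at the right end in 11.

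The stroma of the testis was led by collagen and fibronectin. COL1A1 (ENSDARG00000035809) had 605, 525, 586, 546 and 475 CPM, and its libraries were even. Other type I collagen genes were less even and lowest in library 3. They had 272, 322, 189, 291 and 212 CPM (col1a1a) and 189, 199, 141, 258 and 187 CPM (COL1A2). FN1 (ENSDARG00000006526), fibronectin, had 355, 392, 158, 523 and 395 CPM and was lowest in library 3. The smooth muscle actin acta2, made by the contractile cells around the tubules, had 30.5, 43.1, 16.2, 30.1 and 16.4 CPM. The 21 genes of the peritubular and stromal list summed to 0.216, 0.240, 0.159, 0.244 and 0.191% of the counts, and 10 of the 18 with a mean of at least 1 CPM were lowest in library 3, against a background of 30.7%. With TMM factors the count was 7 of 18, against 24%.

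Immune cell lists were partly covered. Of 26 macrophage and granulocyte genes, 16 reached 1 CPM in every library, as did 4 of 12 lymphocyte genes. The macrophage and granulocyte list summed to 0.0893, 0.0849, 0.0785, 0.157 and 0.122% of the counts, highest in library 4. That sum was mostly apoeb, a lipid carrier that cells other than macrophages also make, with 392, 494, 455, 1045 and 635 CPM. The antigen presentation genes mhc2daa and mhc2dab, class II histocompatibility chains, had 74.0, 20.3, 4.31, 28.5 and 58.9 CPM and 56.6, 19.5, 2.70, 45.2 and 39.5 CPM. Both were lowest in library 3, at a small part of their level in library 1. The list did not share that order. Its members with the most reads after apoeb, cd74b and cd74a, were lowest in library 2 and in library 1. Of the 18 genes with a mean of at least 1 CPM, 5 were lowest in library 3, against a background of 30.7%. With TMM factors the count was 5 too, against 24%. MPEG1 (ENSDARG00000043093), perforin-2 of macrophages, had 28.6, 19.99, 19.1, 12.8 and 8.55 CPM. Lymphocyte genes summed to at most 0.00436% of the counts in any library, and the immunoglobulin gene ighm averaged 0.354 ± 0.183 CPM. Most of the lymphocyte sum was 1 gene, as GATA3 averaged 22.9 CPM of a mean sum of 39.6 CPM. The erythrocyte list summed to 0.00975, 0.0150, 0.0166, 0.0121 and 0.0145% of the counts, highest in library 3 and lowest in library 1. Its member with the most reads, cahz, had 25.7, 72.3, 103, 44.4 and 29.8 CPM, highest in library 3. The red cell globin hbaa2 had 26.1, 34.9, 11.4, 22.5 and 42.8 CPM and was lowest in library 3. The endothelial list summed to 0.0119 to 0.0146% of the counts.

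Markers of tissues other than testis had few reads. The oocyte transcription factor figla had 1 count in the 5 libraries, in library 4, and the egg coat gene zp2.1 averaged 0.0570 ± 0.0836 CPM. The oocyte list as a whole was not empty, since buc, which organises the germ plasm body of the oocyte, had 17.4, 16.7, 20.1, 17.1 and 22.8 CPM and the egg coat gene zp3b had 5.60, 23.2, 7.51, 21.3 and 7.88 CPM. Libraries 2 and 4 held most of zp3b. GDF9 had 4.31, 6.62, 7.51, 1.66 and 3.69 CPM. Skeletal muscle, adipocyte and liver, gut and pancreas lists each summed to at most 0.00587% of the counts in any library. The oocyte and follicle list reached 0.00615%, in library 2. Its mean of 0.00484% was above the 0.00396% of the lymphocyte list, so a low sum alone does not mark a tissue as absent. Defining markers of germ, Sertoli and Leydig cells had counts in every library. The oocyte genes zp3b and GDF9 did too, so a count in every library cannot tell tissues apart.

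Receptors through which hormones reach these cells differed in level, and those for follicle-stimulating and luteinising hormone had few reads. FSHR, the follicle-stimulating hormone receptor of Sertoli cells, had 1.65, 1.06, 0.1001, 1.48 and 1.01 CPM, and lhcgr, the luteinising hormone receptor, had 1.101, 0.591, 0.400, 0.462 and 0.251 CPM. All values of lhcgr came from 3 to 12 counts a library. Those of FSHR came from 18, 9, 1, 16 and 12 counts, so its value in library 3 is a single read. The highest of the list was ESR2 (ENSDARG00000034181), an oestrogen receptor, with 43.3, 43.3, 59.5, 48.4 and 61.3 CPM. The progesterone receptor PGR had 16.3, 6.39, 7.01, 14.3 and 20.7 CPM, lowest in libraries 2 and 3. The insl3 receptor RXFP2 (ENSDARG00000032820) had 6.24, 8.99, 6.81, 7.21 and 6.2004 CPM, which was even beside insl3 itself.

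Over all lists, 103 germ cell genes held 2.45, 2.15, 2.83, 2.12 and 2.24% of the counts and 129 somatic cell genes held 0.561, 0.532, 0.417, 0.661 and 0.539%. The means were 2.36% ± 0.293 for germ cell genes and 0.542% ± 0.0871 for somatic cell genes (SD, n = 5 each). The ratio of the germ cell sum to the somatic sum was 4.37, 4.05, 6.78, 3.201 and 4.15 in libraries 1 to 5, a mean of 4.51 ± 1.34. Library 3 had the highest ratio and library 4 the lowest, and the mean without library 3 was 3.94. The ratio compares 2 chosen lists and is no count of cells. It was 2.59 with exactly matching symbols alone and 6.95 without the highest gene of each list.

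Groups of genes differed between libraries as blocks. The 10 axonemal dynein heavy chain genes together had 0.767, 0.414, 1.01, 0.588 and 0.670% of the counts, and 7 were highest in library 3, where the background was 18.6%, while 8 were lowest in library 2, where it was 20.6%. In the cilia and flagella associated protein family 22 of 31 genes were highest in library 3, again against 18.6%. The same held for 16 of 21 genes of intraflagellar transport, which carries building blocks along the growing tail, and of its partner complex the BBSome, and for 21 of 38 kinesins. With TMM factors, where the background was 24.1%, the counts were 22, 17 and 23. Ribosomal protein genes went the other way, as 64 of 73 were highest in library 4, where the background was 15.5%, and 65 of 73 were lowest in library 3, where it was 30.7%. With TMM factors 68 were highest in library 4 (background 20.7%) and 45 lowest in library 3 (background 24%). Mitochondrially encoded genes were highest in library 4 in 12 of 13 cases, and in 13 with TMM factors. Nuclear genes of the respiratory chain took 0.819, 1.02, 0.847, 0.943 and 0.910% of the counts, with libraries 2 and 4 highest as in the mitochondrially encoded sum but in the other order. Of 97 such genes, 58 were highest in library 2 and 14 in library 4, against backgrounds of 23.5% and 15.5%. With TMM factors these were 43 (background 21.5%) and 30 (background 20.7%). These families were picked after their values had been seen.

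**Figure D4:**
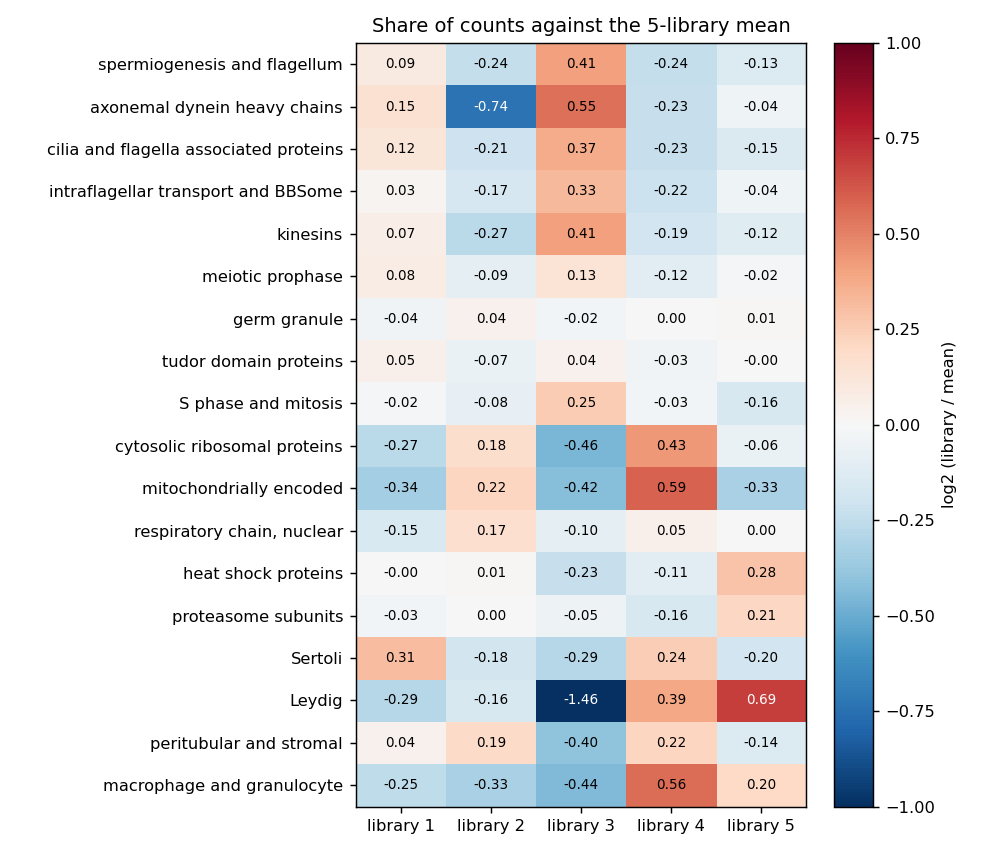
Log2 ratio of a library's share of counts to the mean of the 5 libraries (colour and printed value; colours end at -1 and 1), for 18 lists and families down the page and libraries 1 to 5 across. The germ granule row stays within -0.04 and 0.04, the flagellar rows are highest in library 3, and the Leydig row falls to -1.46 there.

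Stress genes were highest in library 5. The inducible heat shock gene hsp70l had 404 CPM in library 5, against 65.9 to 107 CPM in the other 4. Its relative hsp70.3 had 158 CPM there, against 35.0 to 49.7 CPM, and a gene with the symbol HSPA2 had 102 CPM, against 17.0 to 35.4 CPM. The stress-inducible HSP90AA1 had 573, 489, 510.2, 519 and 1089 CPM and HSPA4 (ENSDARG00000004754), an exchange factor for such chaperones, 257, 259.7, 214, 257 and 463 CPM, both highest in library 5. Of 28 heat shock protein genes 17 were highest in library 5, where the background was 24.8%. All 8 chaperonin subunit genes, whose products fold actin and tubulin, were highest there too, and so were 27 of 50 proteasome subunit genes. With TMM factors, where the background was 17.3%, the counts were 15 heat shock protein, 5 chaperonin and 17 proteasome genes. The immediate early genes were less one-sided, with 128, 88.9, 79.8, 76.2 and 143 CPM for JUNB and 41.4, 33.6, 26.6, 46.6 and 38.3 CPM for JUN.

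Spread between libraries was expressed per gene as the biological coefficient of variation, which edgeR estimates beyond counting error. Its median was 29.9% over 18898 genes, with 80% of genes between 21.4 and 46.6%. It was 37.8% for genes of 1 to 10 CPM, 24.9% for 10 to 100 CPM and 23.4% from 100 CPM up. Estimates are drawn towards a common trend and none was below 19.2%. Near that limit lay SDHA, a subunit of succinate dehydrogenase, with 147, 149.6, 138, 136 and 148 CPM, and the proteasome ATPase PSMC6, with 146, 153, 139, 151 and 161 CPM. Of the 19188 genes, 47.5% had a highest library above 2 times the lowest and 3.5% above 10 times.

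In 6.99% of the 19188 genes 1 library stood apart from the other 4, by a gap of more than 0.71 of the range. For normally distributed values chance passes that limit in about 1 of 20 genes. Whether CPM values are so distributed was not tested. Of the 1341 genes with 1 library apart, 1060 stood apart upwards (5.52% of all) and 281 downwards (1.46%). With log2(CPM + 1) in place of CPM, 1059 genes had 1 library apart. Library 3 stood apart upwards in 334 genes (1.74%) and downwards in 137 (0.714%). The other libraries stood apart upwards in 0.511% (library 1), 1.42% (library 2), 1.04% (library 4) and 0.808% (library 5) of genes. Their downward counts are not given here, so library 3 cannot be ranked in that direction. Among genes with a symbol and a mean of at least 10 CPM, the largest ratio to the other 4 in library 3 was that of mhc1uba, a class I histocompatibility gene, with 226 CPM, against 7.85 to 15.8 CPM in the other 4. In library 4 prok2, which encodes a secreted prokineticin, had 61.1 CPM, against 0.0918 to 0.922 CPM in the other 4. LOXL2, a collagen crosslinking enzyme, had 261 CPM there, against 15.6 to 21.1 CPM. In library 5 CACNA1I, a calcium channel gene, had 112 CPM, against 2.30 to 4.73 CPM. In library 2 gpx1b, a glutathione peroxidase, had 133 CPM, against 10.5 to 31.4 CPM. In library 1 the largest ratio was that of si:dkey-149f22.2, with 71.0 CPM, against 5.54 to 21.2 CPM. The pattern recognition protein PTX3 had 102 CPM there, against 26.6 to 47.2 CPM.

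A few genes were present in some libraries and all but absent in others. Of the 11042 genes with a mean of at least 10 CPM, 13 had 3 counts or fewer in 1 or more libraries, which is 0.118%. GGACT (ENSDARG00000038248), an enzyme that clears crosslinked protein remnants, had 53.3, 0, 23.9, 40.5 and 0 CPM, so it had no count in libraries 2 and 5. Both other genes with that symbol were low in the same libraries, with 6.97, 0, 6.31, 12.3 and 0 CPM (ENSDARG00000070579) and 14.8, 0.237, 3.90, 12.7 and 0.168 CPM (ENSDARG00000070581). RRM2, a subunit of the enzyme that makes DNA precursors, is the symbol of 2 genes. The copy ENSDARG00000078069 had 0.0918, 58.1, 118, 49.0 and 0.922 CPM, with 1 count in library 1, while the copy ENSDARG00000020711 had 125, 114, 67.5, 96.5 and 127 CPM. The coiled-coil gene ccdc15 had 0.367, 0.118, 88.0, 0.554 and 38.7 CPM, present in libraries 3 and 5. The adhesion gene ceacam1 had 31.0, 0.355, 0.300, 20.5 and 0.419 CPM, present in libraries 1 and 4. The complement gene c7b had 15.0, 13.0, 0.300, 18.9 and 30.9 CPM, all but absent in library 3. Lft2, a Nodal antagonist, had 0, 17.4, 22.7, 18.9 and 11.98 CPM and no count in library 1. Other genes varied as widely without reaching the floor, such as col28a1a, a collagen, with 117, 2.25, 343, 2.68 and 3.02 CPM, and the class I histocompatibility gene mhc1zba with 74.5, 1.89, 2.90, 77.3 and 167 CPM. The protease gene CTSB, named after its values were seen, had 458, 74.7, 666, 52.9 and 668 CPM, high in libraries 1, 3 and 5. Reads of near-identical gene copies may have been assigned to either copy or to none, and the part of this in these values was not tested.

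**Figure D5:**
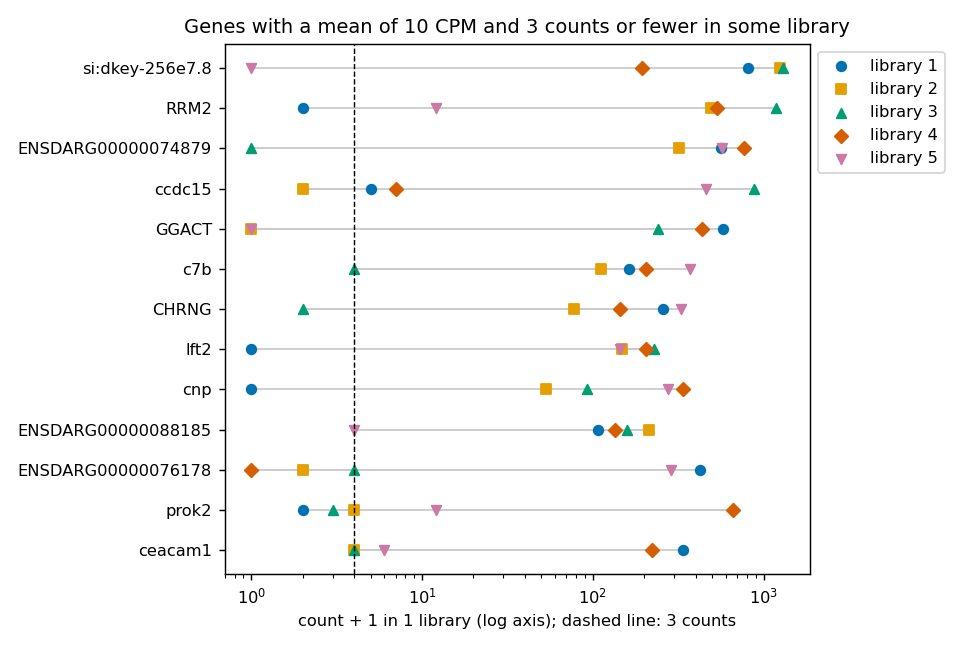
Count plus 1 (horizontal axis, logarithmic) in each library for the 13 genes with a mean of at least 10 CPM and 3 counts or fewer in some library, 1 row a gene and 1 symbol a library; the dashed line marks 3 counts. Which libraries lie at or left of the line differs from gene to gene, such as 2 and 5 for GGACT and 1 for lft2 and cnp.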

How the data were processed

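RNA sequencing of 5 libraries of zebrafish testis was used. The deposited values are counts, whole-number reads per Ensembl gene without normalization, 1 file a library. Per the labels, a miRNeasy kit gave the total RNA and a TruSeq kit (Illumina) the libraries. Per the submitters' processing notes, which name the build Zv9, the tools included HTSeq, DESeq, SAMtools 0.1.18, TopHat2 2.0.5 and FastQC 0.10.1, with no role or order stated. Which annotation release, counting mode and strand were used is not given in the sources used here. The Amh libraries were not used.

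Counts were divided by the library total (CPM) with pandas 2.3.3 in Python 3.11.15. Symbols came from a name table, which held 21939 of 33737 genes. Of 368 list entries, 120 matched exactly, 124 in another case, 47 after a paralogue letter was dropped and 10 through a RefSeq synonym, while 67 matched none. All genes of a matched symbol entered the list. Spread was estimated with edgeR 4.0.16 in R 4.3.3 (intercept only, TMM, genes of 1 CPM in 3 libraries), beside DESeq2 1.42.0. The code was also run on counts simulated from the means and estimated spread of these data. That run checks the code only, since the simulated spread was the estimate itself. No groups were compared and no p-value was computed. The limit of 0.71 of the range for 1 library apart is the critical value of Dixon's outlier test, used here to flag genes. No library was a copy of another, as chi-square per degree of freedom was 17.4 to 54.3 between pairs.

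Named genes were the 20 highest nuclear genes, mitochondrially encoded genes, the 3 highest and some key members of each list, the 12 most and 8 least variable genes, and up to 5 genes per library that stood apart. A few of these are not reported here. Other list members and CTSB were named with their values known. The members and lists were chosen with earlier results of these data known.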

Additional observations from a re-analysis of the deposited data

Results flagged for a closer look

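Of 206 values per library examined, which were list sums, the germ cell to somatic cell ratio and the genes given with CPM values or named for a high level, 24 had 1 library apart from the other 4 by more than 0.71 of the range. Chance flags about 1 in 20 of normally distributed values. Several of the flagged genes were named because they stood apart or varied most, so that choice partly sets the share of 24 in 206. Named for standing apart were si:dkey-149f22.2 71.0 CPM (5.54 to 21.2 CPM) and PTX3 102 CPM (26.6 to 47.2 CPM) in library 1, gpx1b 133 CPM (10.5 to 31.4 CPM) in library 2, mhc1uba 226 CPM (7.85 to 15.8 CPM) in library 3, prok2 61.1 CPM (0.0918 to 0.922 CPM) and LOXL2 261 CPM (15.6 to 21.1 CPM) in library 4, and CACNA1I 112 CPM (2.30 to 4.73 CPM) in library 5, with the range of the other 4 libraries in brackets. In library 2, amh stood at 148 CPM (67.6 to 87.5 CPM in the others), the receptor KIT at 12.1 CPM (7.01 to 7.79 CPM) and the oocyte factor bmp15 at 9.70 CPM (5.08 to 6.28 CPM). In library 3, zgc:55461 stood at 3506 CPM (1925 to 2231 CPM in the others) and the germ granule gene tdrd7a at 529.9 CPM (424 to 448 CPM). In library 4, the mitochondrially encoded MT-ND5 stood at 2416 CPM (1182 to 1461 CPM in the others) and mt-nd4l at 462 CPM (231 to 265 CPM). In library 5, the muscle actin copy ACTA1 (ENSDARG00000055618) stood at 10.2 CPM (3.33 to 4.50 CPM in the others) and lipoprotein lipase (LPL) at 23.9 CPM (12.7 to 15.6 CPM). Further genes were given as members of lists or families or for their variation. Of these, the germ cell gene DND1 69.1 CPM (39.1 to 41.1 CPM), the meiotic gene spo11 53.0 CPM (23.9 to 29.8 CPM) and pou5f3 2.37 CPM (0.739 to 1.101 CPM) stood apart in library 2. In library 5 the chaperone genes HSP90AA1 1089 CPM (489 to 573 CPM) and HSPA4 463 CPM (214 to 259.7 CPM) stood apart. So did HSPA2 102 CPM (17.0 to 35.4 CPM), hsp70.3 158 CPM (35.0 to 49.7 CPM) and hsp70l 404 CPM (65.9 to 107 CPM). HSPA2, hsp70.3 and hsp70l were also among the genes named for standing apart.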

How the results depend on the processing

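With exactly matching symbols alone, germ cell genes held 0.661% and somatic cell genes 0.266% of the counts, a ratio of 2.59. Without the highest gene of each list these were 1.92%, 0.294% and 6.95. The median biological coefficient of variation was 39.4% with no filter on low counts and 24.3% at a mean CPM of at least 10. Of the 11042 genes at that mean, 696 had 1 library apart, against 1341 of the 19188 genes with a mean of at least 1 CPM. The smaller count thus comes from a smaller set of genes. Other scalings, denominators, thresholds and thinning moved these and the remaining summaries by less than a set limit. For shares and the ratio the limit was the spread between libraries, for counts 1.5 times and for the coefficient 1.1 times. The limit for counts is wide, as 11783 genes reached 5 CPM in all libraries, against 16672 at 1 CPM. The germ to somatic ratio could not move under another scaling or denominator, since these cancel in it. Leaving out each library in turn gave germ cell shares of 2.24 to 2.42%, somatic shares of 0.512 to 0.573%, ratios of 3.94 to 4.84, ribosomal shares of 6.48 to 7.58%, mitochondrial shares of 5.17 to 6.29%, 16829 to 17059 genes at 1 CPM in all libraries, 962 to 1029 genes holding 50% of counts and coefficients of 27.8 to 31.0%. Genes highest or lowest in 1 library were counted again with TMM factors, an alternative chosen after seeing the data. Values per kilobase of coding length were not run. No paired analysis was possible because no groups were compared. Depth limits what can be said of genes near 1 CPM, where few reads stand behind a value.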

Other observations

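Some of the most variable genes are neighbours in RefSeq's gene order (assembly GRCz12tu), and neighbours had similar orders of libraries. The genes searched were 61 with the widest spread, with 1 library apart or with 3 counts or fewer in some library. Among them, 4 pairs lay within 3 protein-coding genes of each other, most of them from 1 run of genes. How many such pairs chance gives was not tested. Cnp, ODAD4, an outer dynein arm docking factor, and the cochaperone gene DNAJC7 follow each other, and all were lowest in library 1. Cnp had 0, 6.15, 9.21, 31.0 and 23.1 CPM, ODAD4 0.459, 22.1, 108, 132 and 99.2 CPM and DNAJC7 1.74, 13.5, 36.7, 57.5 and 52.1 CPM in libraries 1 to 5. The gene mhc1zba lies next to CBR1, a carbonyl reductase gene. CBR1 had 27.8, 0.591, 0.701, 13.9 and 29.6 CPM, so libraries 2 and 3 were low for both genes.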
